A study of Mus musculus with 374 samples.

Results

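Runx1, Runx2 and Runx3 encode the DNA-binding subunits of the core binding factor, and Cbfb encodes the subunit they share. These 4 genes were chosen by name from the 19829 mouse gene rows of a count table of single blood-forming cells, and all 4 had a row. Their molecule counts and the cells in which they were seen were followed across 5 sorted cell populations. All cells came from 1 female C57BL/6 mouse, aged 10 to 13 weeks, with no treatment named in the labels. From the bone marrow came 95 high-end progenitor/stem cells (Lin-, Kit+ and Sca1+), 44 B lymphocytes (B220+, low forward scatter area), 96 granulocytes (Mac1+ and Gr1+) and 96 erythroblasts (Ter119+ and CD44+, mid to high forward scatter area). The 43 T lymphocytes (CD3+, low forward scatter area) came from the thymus, so they are not circulating T cells. Cells were index-sorted into the wells of 1 plate and measured by CEL-seq2, a method that tags the 3′ end of each mRNA with a cell barcode and a unique molecular identifier (UMI). Each population lay in its own rows of the plate, so population and plate position cannot be told apart.

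RUNX proteins bind DNA through the Runt domain. CBFβ does not bind DNA itself, but it joins the Runt domain, increases its affinity for DNA and protects RUNX1 from degradation. RUNX1 is required for the emergence of blood stem cells in the embryo and acts later in megakaryocytes and lymphocytes, RUNX3 silences Cd4 in cytotoxic T cells, and RUNX2 is best known as the master regulator of bone-forming cells.

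Each mouse Runx gene can be transcribed from a distal and a proximal promoter, and RUNX proteins recognise the core ACCACA. The RefSeq promoter windows (GRCm38.p6, 300 bases around a gene start) at the distal start of the 3 Runx genes share an 18-base run that holds 2 copies of this core. It is shown because it joins the 3 genes at the level of sequence and holds the motif that the encoded proteins bind. In the 3 windows of 30 bases below, read on the strand of the gene, capitals mark the shared run.
Runx1 (chr16:92826025-92826054, minus strand, run starting 26 bases after the gene start): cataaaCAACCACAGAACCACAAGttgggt
Runx2 (chr17:44814583-44814612, minus strand, run starting 21 bases after the gene start): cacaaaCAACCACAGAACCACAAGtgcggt
Runx3 (chr4:135120503-135120532, plus strand, run starting 136 bases before the gene start): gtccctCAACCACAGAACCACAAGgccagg
Searched on both strands, the run was held by 4 of the 32851 RefSeq promoter windows (0.0122%), and the fourth, that of Gm16225, overlaps the Runx3 window on the opposite strand. The shorter core ACCACA was held by 5506 windows (16.8%), with 2, 3 and 2 copies in the distal windows of Runx1, Runx2 and Runx3. Neither the proximal windows of Runx1 and Runx3 nor the window of Cbfb held the core, which says only that these letters are not within them. A match is a description of the sequence and no measurement of binding. Because CEL-seq2 counts 3′ ends, the UMIs below do not tell transcripts of the distal promoter from those of the proximal promoter.

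In GENCODE M21 (GRCm38), Runx1 (ENSMUSG00000022952) lies at chr16:92601466-92826149 on the minus strand and Runx2 (ENSMUSG00000039153) at chr17:44495987-44814797 on the minus strand. Runx3 (ENSMUSG00000070691) lies at chr4:135120652-135177990 and Cbfb (ENSMUSG00000031885) at chr8:105170674-105217989, both on the plus strand. All 4 are protein-coding. Exons of Runx2 overlap those of the antisense gene Runx2os1, which held 3 UMIs in 3 progenitor/stem cells, none of them a cell with a Runx2 UMI. Exons of Runx1 overlap Gm26626 on the opposite strand, which is not analysed here. Use of strand in the counting is not given in the sources used here, so reads of such partners cannot be told apart from those of the genes.

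The wells of the populations held 834812 UMIs on mouse genes in progenitor/stem cells, 200396 in T lymphocytes, 135808 in B lymphocytes, 403506 in granulocytes and 666728 in erythroblasts. The median per well was 7959, 4347, 3028.5, 3880 and 6113.5 UMIs in the same order. Haemoglobin genes held 23.5% of these UMIs in erythroblasts and 1.21% to 2.83% in the other populations. Summed UMIs are given as CPM, the count per 1000000 UMIs on mouse genes of the population. Each population is 1 sample of 1 mouse, so there is no test. The 95% intervals in parentheses cover counting error only, not the spread between cells or between mice. Each population had its own markers highest. The 8 T-cell markers summed to 3957 CPM in thymic T lymphocytes and at most 73.6 CPM elsewhere. The 7 B-cell markers summed to 9558 CPM in B lymphocytes and at most 309 CPM elsewhere. The 6 progenitor/stem markers summed to 3527 CPM in their population and at most 230 CPM elsewhere. The 8 granulocyte markers summed to 151626 CPM in granulocytes and at most 6693 CPM elsewhere, in B lymphocytes. The 7 erythroblast markers summed to 246693 CPM in erythroblasts and at most 29188 CPM elsewhere, also in B lymphocytes. The source of such counts outside a marker's own population was not tested. The 5 markers fixed for monocytes and macrophages, Csf1r among them, summed to 902 CPM in granulocytes and at most 81.5 CPM elsewhere. The part of such cells in the granulocyte values was not tested. In 7 of the 374 wells the expression was most like that of another population (1 or 2 in each population). Kit, whose protein is part of the sort gate, and the progenitor genes Flt3 and Cd34, which are not, were found in the 4 other populations at 1.67% to 9.08% of their progenitor/stem level.

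In CPM, Runx1, the DNA-binding subunit most used in blood, was highest in progenitor/stem cells and lowest in erythroblasts. It was the main Runx gene in every population. It held 155 UMIs in progenitor/stem cells, or 186 CPM (158 to 217). The T lymphocytes held 25 Runx1 UMIs, or 125 CPM (80.7 to 184), and the B lymphocytes 12, or 88.4 CPM (45.7 to 154). Granulocytes held 28, or 69.4 CPM (46.1 to 100.3), and erythroblasts 26, or 39.0 CPM (25.5 to 57.1).

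The Runx1 levels therefore formed a gradual slope in which most neighbours did not differ beyond counting error. Progenitor/stem cells against T lymphocytes gave a log2 ratio of CPM of 0.57 (−0.042 to 1.25), T against B lymphocytes 0.50 (−0.55 to 1.62), and B lymphocytes against granulocytes 0.35 (−0.76 to 1.37). Among neighbours, granulocytes against erythroblasts alone had an interval without 0, at 0.83 (0.0082 to 1.66), and with scran size factors (described below) this step held 0, at 0.64 (−0.18 to 1.47). Populations farther apart in the order were separated: progenitor/stem cells over B lymphocytes gave 1.07 (0.23 to 2.05), over granulocytes 1.42 (0.83 to 2.06) and over erythroblasts 2.25 (1.65 to 2.91), which is 4.76-fold in CPM. The lower end was also separated from the T lymphocytes, whose Runx1 level was 3.20-fold (1.77 to 5.76) that of the erythroblasts, but with scran this ratio was 1.76-fold (0.972 to 3.16).

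**Figure D1:**
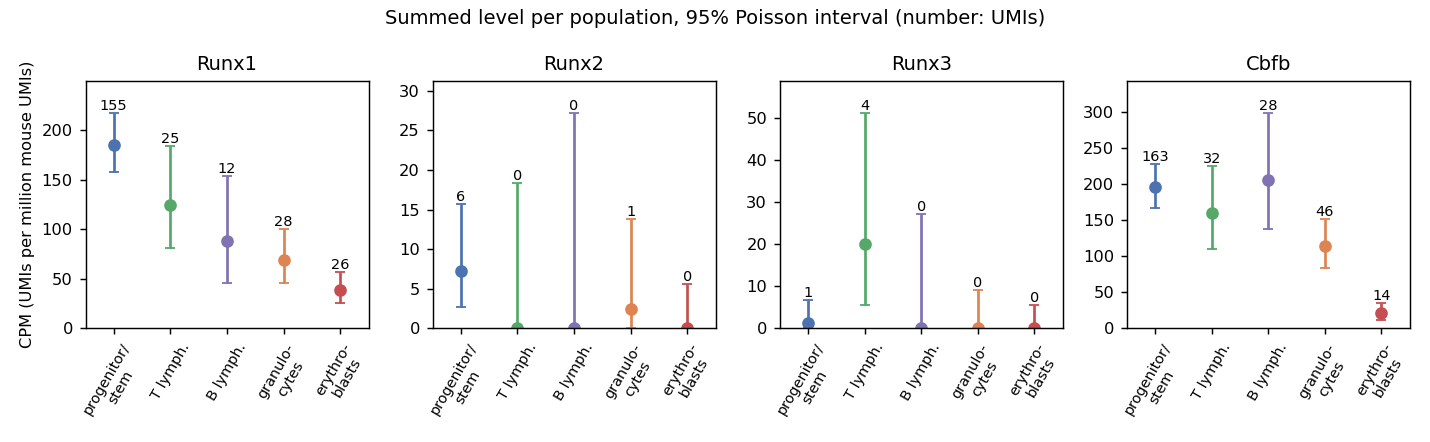
Summed level of Runx1, Runx2, Runx3 and Cbfb in the 5 populations, in CPM (UMIs per 1000000 UMIs on mouse genes) on axes that start at 0 and differ between panels. Points are the sums, bars the 95% Poisson intervals (counting error only) and numbers the UMIs: Runx1 slopes from 186 CPM in progenitor/stem cells to 39.0 in erythroblasts, Cbfb is lowest in erythroblasts at 21.0, and Runx2 and Runx3 rest on at most 6 UMIs a population.

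Cbfb, the common partner, had a different shape: near level in progenitor/stem cells and lymphocytes, and very low in erythroblasts. It held 163 UMIs in progenitor/stem cells, or 195 CPM (166 to 228), 32 in T lymphocytes, or 160 CPM (109 to 225), and 28 in B lymphocytes, or 206 CPM (137 to 298). The granulocytes held 46, or 114 CPM (83.5 to 152), and the erythroblasts 14, or 21.0 CPM (11.5 to 35.2). In the order from B lymphocytes down to granulocytes the neighbours did not differ beyond counting error, with log2 ratios of 0.079 (−0.56 to 0.66), 0.29 (−0.26 to 0.88) and 0.49 (−0.21 to 1.17). The step from granulocytes to erythroblasts was 2.44 (1.55 to 3.42), or 5.43-fold (2.93 to 10.7). Progenitor/stem cells over erythroblasts gave 3.22 (2.43 to 4.12), or 9.30-fold (5.39 to 17.4).

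The ratios of all genes put these values in scale. When a gene needed 50 UMIs over the pair of populations, 24.1% of genes had an interval above 0 for progenitor/stem cells over T lymphocytes, 28.1% over B lymphocytes, 52.1% over granulocytes and 55% over erythroblasts. The ratio of Runx1 was among these for 3 of the 4 populations and that of Cbfb for 2, granulocytes and erythroblasts. The median log2 ratio over the same genes was 0.22, 0.44, 0.76 and 0.73. Relative to that median, Runx1 in progenitor/stem cells was 1.58-fold higher against granulocytes and 2.87-fold higher against erythroblasts, and Cbfb 1.01-fold and 5.61-fold. The Cbfb difference from granulocytes was thus about the size of that of the median gene, and 49.4% of genes had a ratio at or above it. Against erythroblasts, 18.8% of genes had a ratio at or above that of Runx1 and 10.5% at or above that of Cbfb.

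Scaling by scran size factors, which pool cells to estimate each cell's scale, moved all log2 ratios of progenitor/stem cells by −0.15 against T lymphocytes, −0.29 against B lymphocytes, −0.83 against granulocytes and −1.01 against erythroblasts. With it the intervals above 0 became 18.9%, 18%, 26.8% and 25.1% of genes. Runx1 in progenitor/stem cells over granulocytes was then 0.59 (0.0060 to 1.23) and over erythroblasts 1.24 (0.63 to 1.90), while over B lymphocytes the interval came to hold 0, at 0.78 (−0.069 to 1.76). Cbfb over granulocytes turned direction, at −0.050 (−0.53 to 0.45), and over erythroblasts it was 2.20 (1.42 to 3.11). With scran, the 2 ratios of progenitor/stem cells over granulocytes and over erythroblasts were the Runx1 ratios whose interval left out 0, of 10 pairs. For Cbfb the erythroblasts stayed below each of the other 4 populations, with 4.17-fold (2.16 to 8.46) for T lymphocytes, 5.97-fold (3.04 to 12.3) for B lymphocytes and 4.77-fold (2.58 to 9.39) for granulocytes. In CPM and with scran, the point values of erythroblasts were lowest for both genes. The granulocytes changed their place in the order: with scran they stood above the B lymphocytes for Runx1 and above the progenitor/stem cells for Cbfb.

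**Figure D2:**
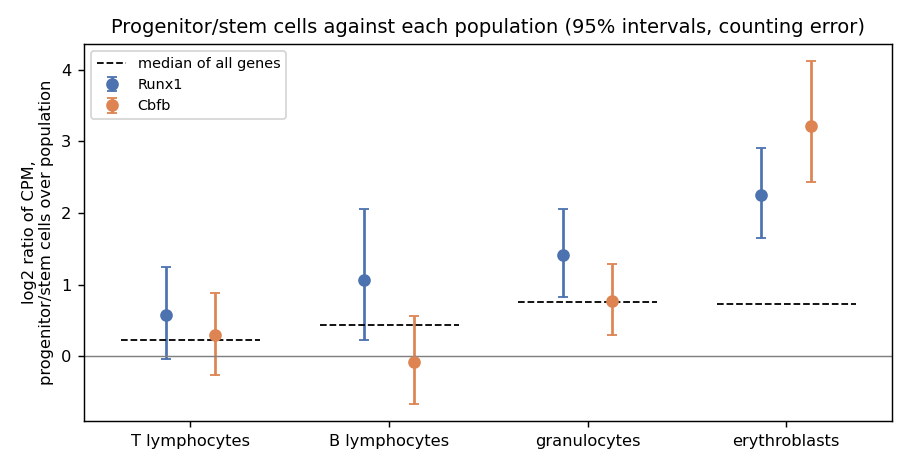
Log2 ratio of CPM of Runx1 and Cbfb in progenitor/stem cells over each of the other 4 populations. Points are the ratios, bars 95% intervals (counting error only), and dashed lines the median of all genes with at least 50 UMIs in the pair: both genes stand above that median against erythroblasts (2.25 and 3.22 beside 0.73), while Cbfb lies on it against granulocytes (0.78 beside 0.76), a difference that turns to −0.050 with scran size factors.

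The share of cells in which a molecule was seen followed the same order for Runx1. A Runx1 UMI was found in 71 of 95 progenitor/stem cells (74.7%), 17 of 43 T lymphocytes (39.5%), 12 of 44 B lymphocytes (27.3%), 22 of 96 granulocytes (22.9%) and 20 of 96 erythroblasts (20.8%). These shares depend on depth, so each well was also thinned to 2000 UMIs and shallower wells were left out (0, 1, 11, 10 and 1 wells in the same order). The expected shares were then 31.6%, 22.8%, 20.7%, 12.1% and 6.71%. Thinned to 1000 UMIs, with 0, 1, 1, 2 and 1 wells left out, they were 17.3%, 12.6%, 7.95%, 5.74% and 3.45%. The order of the populations was kept in each setting.

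For Cbfb the shares were 69 of 95 progenitor/stem cells (72.6%), 22 of 43 T lymphocytes (51.2%), 17 of 44 B lymphocytes (38.6%), 38 of 96 granulocytes (39.6%) and 14 of 96 erythroblasts (14.6%). Thinned to 2000 UMIs they were 30.2%, 27.4%, 24.0%, 19.6% and 5.41%. Thinned to 1000 UMIs they were 16.6%, 14.9%, 16.2%, 10.3% and 2.70%, so the order of T and B lymphocytes depended on the setting. Progenitor/stem cells and T lymphocytes thus came close once depth was equal, and the erythroblasts stayed apart. In erythroblasts Kit, Flt3 and Cd34 were at 2.02% to 3.55% of their progenitor/stem level, Runx1 at 21.0% and Cbfb at 10.8%. The part of molecules from other wells in these erythroblast counts was not tested.

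**Figure D3:**
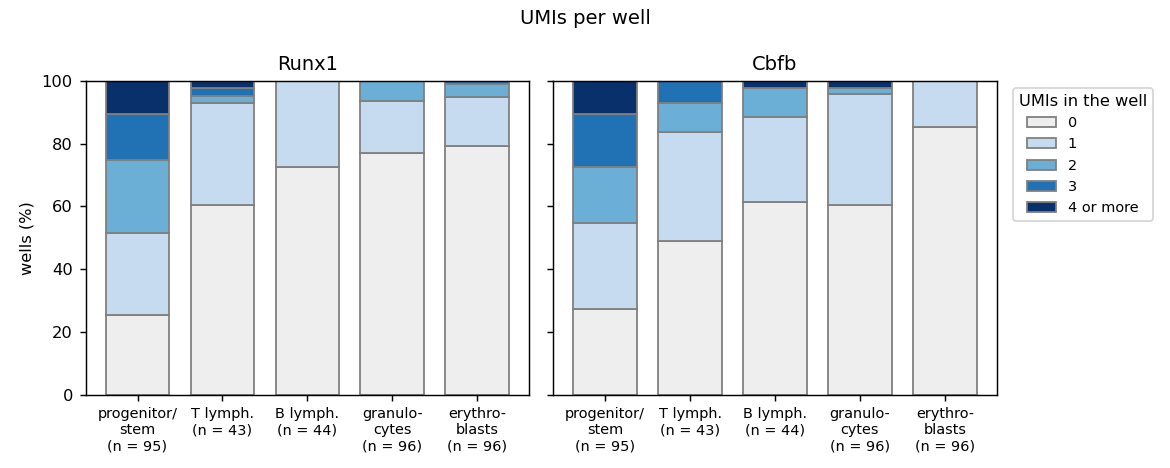
Share of wells (%) with 0, 1, 2, 3 and 4 or more UMIs of Runx1 (left) and Cbfb (right) in each population, not corrected for depth. Wells with 4 or more UMIs number 10 of 95 for each gene in progenitor/stem cells, and in erythroblasts no well has more than 1 Cbfb UMI.

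Outside the progenitor/stem cells most positive wells held 1 molecule, and 2 wells carried a large part of their population's count. In the T lymphocytes, well P15 held 6 of the 25 Runx1 UMIs. Without it the level was 97.4 CPM, and without the top well of each population the log2 ratio of progenitor/stem cells over T lymphocytes was 0.90 (0.21 to 1.67), which no longer holds 0. In the B lymphocytes, well A11 held 8 of the 28 Cbfb UMIs. Without it the level was 153 CPM, below progenitor/stem cells and T lymphocytes with all their wells, so the top place of the B lymphocytes for Cbfb rests on that cell. When the top well of each population was left out, Cbfb was at 187 CPM in progenitor/stem cells and 147 CPM in T lymphocytes. The B lymphocytes then lay between them.

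Runx2, the skeletal member, was rare, and 6 of its 7 UMIs came from progenitor/stem cells. The counts were 6 UMIs in 5 progenitor/stem cells, or 7.19 CPM (2.64 to 15.6), and 1 in a granulocyte, or 2.48 CPM (0.063 to 13.8). The ratio of these 2 populations was 2.90-fold (0.35 to 133), so they did not differ beyond counting error. No UMI was found in T lymphocytes, B lymphocytes and erythroblasts, which allows up to 15.0, 22.1 and 4.50 CPM (3 UMIs). The limits of both lymphocyte populations lie above the progenitor/stem level, so a lower level there was not detectable at this depth. The erythroblast limit of 4.50 CPM lies below that level but inside its interval (2.64 to 15.6). The interval for the ratio of progenitor/stem cells over erythroblasts held 1, so these populations did not differ beyond counting error either. The 5 cells were deep, with a median of 12619 UMIs against 7958 in the other progenitor/stem cells, and 4 of them also held Runx1, with 1, 3, 4 and 3 UMIs. Of the 6 markers fixed for bone-forming and stromal cells, 2 had a row, and they summed to 1 UMI in progenitor/stem cells.

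Runx3, the member tied to cytotoxic T cells, was as rare, and 4 of its 5 UMIs came from T lymphocytes. It held 4 UMIs in 3 of the 43 T lymphocytes, or 20.0 CPM (5.44 to 51.1), and 1 UMI in a progenitor/stem cell, or 1.20 CPM (0.030 to 6.67). The progenitor/stem level was 0.060-fold (0.0012 to 0.606) that of the T lymphocytes. Of the 4 UMIs 2 came from well O8, and without it the T level was 10.2 CPM and the ratio 0.117-fold (0.0020 to 2.25), which no longer leaves out 1. The 0 UMIs of B lymphocytes, granulocytes and erythroblasts allow up to 22.1, 7.43 and 4.50 CPM, so the B lymphocytes cannot be set below the T lymphocytes at this depth. T lymphocytes over granulocytes and over erythroblasts had lower bounds of 1.33-fold and 2.20-fold. These bounds rest on 4 UMIs, 2 of them in well O8, and were not computed without that well. All 3 T lymphocytes with Runx3 carried the CD8 coreceptor genes: 13 Cd8a and 15 Cd8b1 UMIs in the first, 6 and 13 in the second, and 6 and 5 in the third. Their Cd4 UMIs were 1, 1 and 0. Among all 43 T lymphocytes, 19 held a Cd8a or Cd8b1 UMI and 23 a Cd4 UMI, so 3 of 19 cells with a CD8 transcript, and 0 of the rest, had a Runx3 UMI. With 3 cells, chosen for Runx3, this is a description. The progenitor/stem cell with Runx3 had 1 Cd4 UMI and no Cd8a or Cd8b1.

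Counted together, the Runx genes were nearly all Runx1. Its share of the Runx UMIs was 95.7% (91.3 to 98.2) of 162 in progenitor/stem cells, 86.2% (68.3 to 96.1) of 29 in T lymphocytes and 96.6% (82.2 to 99.9) of 29 in granulocytes. It was 100% of 12 in B lymphocytes and of 26 in erythroblasts, with lower limits of 73.5% and 86.8%. In T lymphocytes Runx3 made up the other 13.8% (3.89 to 31.7), and the intervals of the Runx1 share overlap in all populations. A 3′ UMI count does not grow with transcript length, so these shares were taken without a length correction.

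Set against its partner in the same wells, Runx1 took a different share in some populations, and this ratio does not depend on the scaling of the libraries. It was examined after the levels had been seen. Runx1 made up 48.7% (43.1 to 54.4) of the 318 Runx1 and Cbfb UMIs in progenitor/stem cells, 43.9% (30.7 to 57.6) of 57 in T lymphocytes, 30.0% (16.6 to 46.5) of 40 in B lymphocytes, 37.8% (26.8 to 49.9) of 74 in granulocytes and 65.0% (48.3 to 79.4) of 40 in erythroblasts. Erythroblasts, in which both genes were lowest in CPM, thus had the highest share of Runx1. The odds of a UMI being Runx1 rather than Cbfb were 4.25-fold (1.54 to 12.3) higher in erythroblasts than in B lymphocytes and 3.02-fold (1.28 to 7.40) higher than in granulocytes. Progenitor/stem cells exceeded B lymphocytes 2.21-fold (1.05 to 4.96). Without well A11 the first of these was 3.32 (1.14 to 10.1) and the last 1.73 (0.76 to 4.13), which no longer leaves out 1. Of the 10 pairs of populations, the other 7 have intervals that hold 1.

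**Figure D4:**
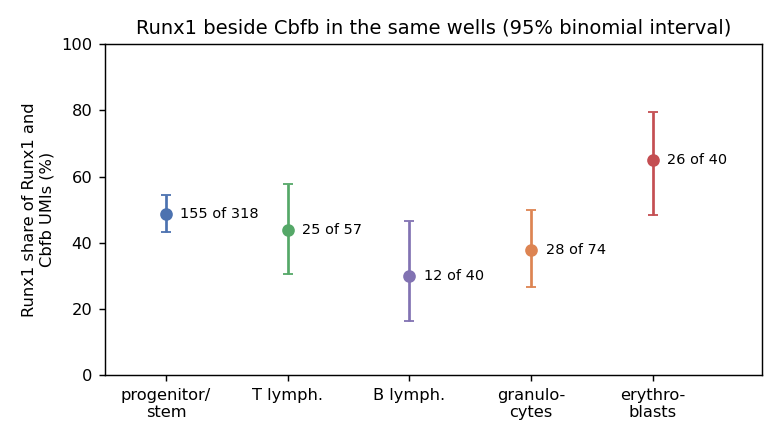
Runx1 share (%) of the summed Runx1 and Cbfb UMIs in each population, with 95% binomial intervals (counting error only) and the UMIs behind each share. The share is 65.0% in erythroblasts, 48.7% in progenitor/stem cells and 30.0% in B lymphocytes.

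Cells with both transcripts made up most of the progenitor/stem cells and few of the erythroblasts. In progenitor/stem cells 50 of 95 wells held both, 21 Runx1 alone, 19 Cbfb alone and 5 neither. In the T lymphocytes 11 of 43 held both and 15 neither, in B lymphocytes 7 of 44 and 22, and in granulocytes 11 of 96 and 47. Only 1 of 96 erythroblasts held both, 19 held Runx1 alone and 13 Cbfb alone. Wells with both were deeper than wells with neither in every population (medians of 8739 and 5488 UMIs in progenitor/stem cells), and the part of depth in these counts was not tested.

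Within populations, the surface markers recorded at sorting gave a further view. Wells above and at or below the median fluorescence (forward scatter area for B lymphocytes) were summed, for Runx1 and Cbfb and 6 index values, which makes 12 ratios. The interval held 0 for 10 of them, and for 9 with scran, where Cbfb in erythroblasts with more over those with less CD44 was −2.03 (−3.96 to −0.30). In CPM that ratio was −1.48 (−3.40 to 0.26), on 5 and 9 UMIs. In the T lymphocytes, Cbfb was lower in the 21 cells with more surface CD3, with 7 UMIs or 74.0 CPM, than in the 22 with less, with 25 UMIs or 236 CPM. The log2 ratio was −1.67 (−3.13 to −0.42), and −2.21 (−4.20 to −0.65) between the 15 cells with the most and the 15 with the least CD3. Of 1162 genes with at least 30 UMIs in these cells, 2.67% had an interval below 0 in this split. Runx1 gave −0.19 (−1.47 to 1.06) in the same split, and 0.62 (−0.98 to 2.28) between the outer 15 cells. Such outer cells were compared for all 6 index values, in CPM, and only some of these ratios are given.

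In the progenitor/stem cells, Cbfb was higher in the 47 cells with more Sca-1 than in the other 48, with 93 UMIs or 236 CPM against 70 UMIs or 159 CPM. The log2 ratio was 0.57 (0.11 to 1.04), and 5.15% of 3281 genes had an interval above 0, while between the 32 cells with the most and the 32 with the least Sca-1 it was 0.52 (−0.062 to 1.12). Runx1 gave −0.38 (−0.87 to 0.094) in the same split, and between the outer 32 cells its interval left out 0, at −0.71 (−1.35 to −0.096). By c-Kit, Cbfb gave 0.32 (−0.14 to 0.79), and 0.58 (0.0029 to 1.18) between the outer 32 cells. For Sca-1 the median depths were 7697 UMIs in the cells with more Sca-1 and 8183 in the others.

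The genes whose profile over the 5 populations was most like that of Runx1, by a distance between profiles of shares (0 for equal shares, 1 for none in common) among genes with at least 100 UMIs, were Rreb1, a zinc-finger transcription factor (0.030), Zc3h14, a poly(A)-binding protein (0.037), Rnmt, the mRNA cap methyltransferase (0.038), Gm13456 (0.038) and Rnf220, a ubiquitin ligase (0.042). Rreb1 went from 98.2 CPM in progenitor/stem cells to 13.5 in erythroblasts. Those of Cbfb were Tmod3, a tropomodulin that caps actin filaments (0.022), Psmb10, a subunit of the immunoproteasome (0.041), Zfp518a (0.043), Arhgef18, a guanine nucleotide exchange factor (0.046), and Tmed5, a protein of the secretory pathway (0.047). Tmod3 went from 125 CPM in B lymphocytes to 12.0 in erythroblasts. With a Pearson correlation of log2 values in place of this measure, 0 of the 5 genes for Runx1 and 4 of the 5 for Cbfb were chosen again, so the names given for Runx1 rest on the measure.

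Proteins that act with RUNX were described from lists of known cofactors, partner factors and modifying enzymes. Over all 6317 genes with at least 50 UMIs, the highest CPM was in progenitor/stem cells for 31.9%, in T lymphocytes for 20.9%, in B lymphocytes for 14.3%, in granulocytes for 14.1% and in erythroblasts for 18.7%. With scran size factors the first of these was 14.1%. The progenitor/stem cells were highest and at least 2-fold above the next population for 4.69%.

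Of 22 corepressors and coactivators, 14 reached 50 UMIs, and they were spread over the populations: 5 were highest in progenitor/stem cells, 5 in T lymphocytes, 1 in B lymphocytes, 1 in granulocytes and 2 in erythroblasts. With scran 4 were highest in progenitor/stem cells. Their median log2 ratio of progenitor/stem cells over erythroblasts was 1.19, beside 0.86 for all genes, and over T lymphocytes 0.012, beside 0.19. The Groucho corepressors Tle3 and Tle4 were highest in T lymphocytes, at 179.6 and 149.7 CPM, 2.27-fold and 2.15-fold above the next population. Cbfa2t3, an ETO-family corepressor, was highest in progenitor/stem cells at 458 CPM. Smarca4, the ATPase of the BAF chromatin remodeller, stood at 1406 CPM in B lymphocytes and at most 253 CPM elsewhere. Ncor1, a nuclear receptor corepressor, was the most counted of the list and highest in granulocytes at 771 CPM, and the acetyltransferase gene Crebbp was highest in T lymphocytes at 469 CPM. Runx1t1, the gene of the ETO protein fused to RUNX1 in acute myeloid leukaemia, did not reach 50 UMIs, but 18 of its 20 UMIs were in erythroblasts. It is named because of these values.

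Of 14 partner transcription factors, 10 reached 50 UMIs, with 3 highest in progenitor/stem cells, 1 in T lymphocytes, 1 in B lymphocytes, 2 in granulocytes and 3 in erythroblasts. With scran size factors 1 was highest in progenitor/stem cells. These counts lie near the shares over all genes, and the single genes are given for their values. Gata2, a stem cell factor, was highest there at 141 CPM against at most 19.8 elsewhere, and so was Lmo2, a bridging protein, at 956 CPM against 517 in erythroblasts, an order that turned around with scran. Tal1, Gata1 and Gfi1b, which act in red cell development, were highest in erythroblasts, at 210.0, 304 and 141 CPM. Spi1, the gene of PU.1, was highest in granulocytes at 714 CPM, Myb in B lymphocytes at 891 CPM, and Ldb1 in T lymphocytes at 264 CPM. For the 10 partners the median log2 ratio of progenitor/stem cells was 2.05 against T lymphocytes, 0.81 against B lymphocytes, 1.83 against granulocytes and 1.03 against erythroblasts, beside 0.19, 0.29, 0.80 and 0.86 for all genes. In CPM, the erythroblasts were thus lowest in Runx1 and Cbfb and highest in Tal1, Gata1 and Gfi1b.

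**Figure D5:**
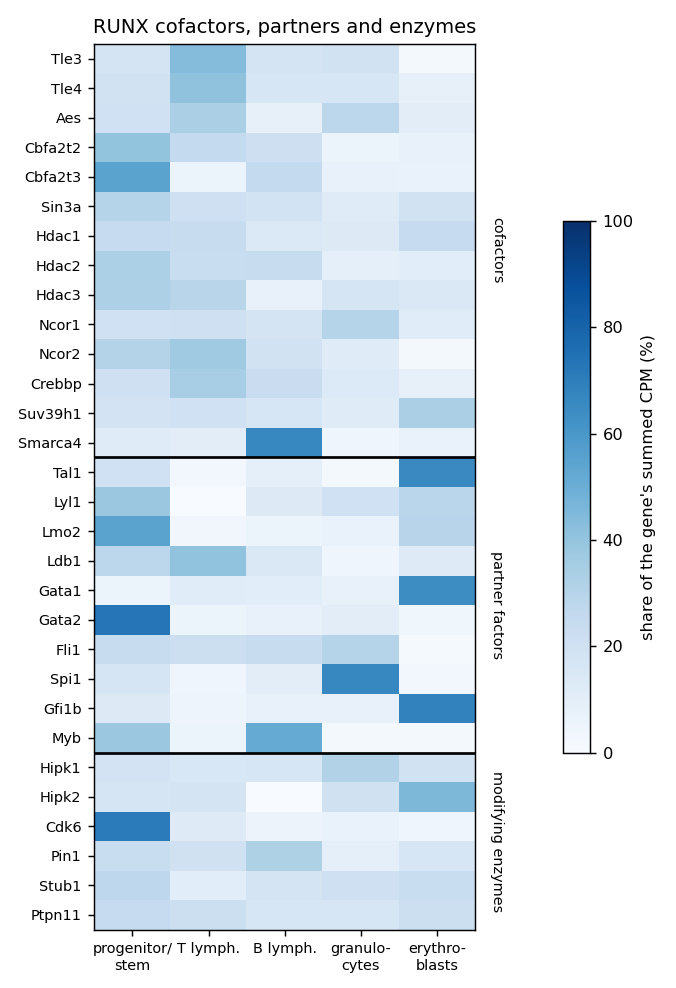
Share (%) of each gene's CPM, summed over the 5 populations, that lies in each population, for the 30 cofactors, partner factors and modifying enzymes with at least 50 UMIs. Darker cells mark a population that holds more of the gene: Gata2 and Cdk6 in progenitor/stem cells, Smarca4 in B lymphocytes, Spi1 in granulocytes, and Tal1, Gata1 and Gfi1b in erythroblasts.

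Enzymes that modify RUNX proteins gave 6 of 9 genes with 50 UMIs, of which 3 were highest in progenitor/stem cells (1 with scran), 1 in B lymphocytes, 1 in granulocytes and 1 in erythroblasts. Cdk6, a kinase that binds RUNX1, stood at 1212 CPM in progenitor/stem cells and at most 209.6 CPM elsewhere. The kinase gene Hipk2 was highest in erythroblasts, at 51.0 CPM against at most 22.3 elsewhere, and Hipk1 in granulocytes at 141 CPM. The ubiquitin ligase gene Stub1 and the phosphatase gene Ptpn11 were highest in progenitor/stem cells, at 103 and 92.2 CPM, 1.18-fold and 1.14-fold above the next population, and with scran in erythroblasts. The median log2 ratio of progenitor/stem cells over erythroblasts was 0.22 for the 6 enzymes, beside 0.86 for all genes. Over granulocytes it was 0.53, beside 0.80.

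Genes known as targets of RUNX1 or RUNX3 were mostly highest in the lineage they belong to. All 5 of the 7 stem and megakaryocyte targets with 50 UMIs were highest in progenitor/stem cells and at least 2-fold above the next population, among them Hlf (752 CPM), Kit (677 CPM), Cd34 (519.9 CPM) and Itga2b (64.7 CPM). Of 12 T lineage targets, 10 reached 50 UMIs, with 8 highest in T lymphocytes and 2 in B lymphocytes. With scran 7 were highest in T lymphocytes, as Zbtb7b, which led by 1.03-fold in CPM, was then highest in granulocytes. Trbc2 (2271 CPM), Trac (1322 CPM), Bcl11b (1018 CPM), Trbc1 (813 CPM), Cd8a (539 CPM), Cd8b1 (504 CPM) and Cd4 (264 CPM) were highest in T lymphocytes. Rag1, of the recombinase, had 89 UMIs in B lymphocytes, while the 0 UMIs of T lymphocytes allow up to 15.0 CPM. All 4 of the 5 B lineage targets with 50 UMIs were highest in B lymphocytes: Ighm (4668 CPM), Cd79a (1149 CPM), Ebf1 (419.7 CPM) and Blk (383 CPM). Of 8 myeloid targets, 7 reached 50 UMIs, with 5 highest in granulocytes and 2 in progenitor/stem cells (1 with scran). Itgam (1103 CPM), Csf3r (833 CPM), Elane (352 CPM), Csf1r (198 CPM) and Cebpe (151 CPM) were highest in granulocytes, and Prtn3 (310 CPM) and Mpo (231 CPM) in progenitor/stem cells, although Prtn3 was highest in granulocytes with scran. Several of these genes also mark the sorted populations, so their order goes with the identity of those cells and is no measure of RUNX activity. Csf1r is also among the markers fixed for monocytes and macrophages.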

How the data were processed

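Single cells of 5 sorted populations of 1 mouse were measured by CEL-seq2. The deposited table holds raw UMI counts, which the authors made with *scPipe* by aligning reads, assigning them to exons and collapsing them to UMIs. The sources used here do not give the aligner version, genome build, annotation or use of strand. Samples were found by their well, and 9 columns without a sample were left out. Symbols and coordinates came from GENCODE M21 (GRCm38) and promoters from RefSeq (GRCm38.p6). The build behind the counts may differ.

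Counts were summed per population and divided by the UMIs on mouse genes. The median depth was 5289 UMIs per well. With 1 sample per population no test was run and no p-value computed. The 95% intervals are exact Poisson (sums), exact binomial (shares) and exact conditional binomial (ratios). A sum of 0 was given a limit of 3 UMIs, and medians of ratios used sums raised to that floor. Doublets were not called, as cells were sorted singly into wells, and all 374 barcodes were distinct. Alternatives used scran 1.30.0 size factors, other denominators, ERCC spike-ins, thinning and sets of wells, including 334 wells retained by outlier detection with MASS 7.3.60.0.1 (R 4.3.3). Python 3.11.15, scipy 1.17.1 and pandas 2.3.3 were used. The interval step was tested on simulated Poisson sums, which hold no spread between cells.

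The genes and lists were chosen with earlier results of these data known. Named genes were the 4 members, the 5 genes most like Runx1 and Cbfb, and of each list the 4 with the most UMIs and those at least 2-fold above the next population. Of the 77 list genes 72 had a row, and the others are not analysed here. The values of 1 further list gene are not reported here.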

Additional observations from a re-analysis of the deposited data

How the results depend on the processing

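Of 125 alternative values for the ratios between populations and the Runx1 shares, 115 stayed within the counting interval of the value reported, 9 moved outside it and 1, a ratio whose interval had left out 0, turned direction. The sign also changed in 4 values, 1 of them among the 9, of ratios whose interval held 0: Cbfb in progenitor/stem cells over B lymphocytes, −0.079, in 3 settings and Cbfb in T over B lymphocytes, −0.37, in 1. With scran size factors, the log2 ratio of progenitor/stem cells over granulocytes was 0.59 for Runx1 and −0.050 for Cbfb, and over erythroblasts 1.24 and 2.20. Per ERCC spike-in UMI, which measures RNA per well, Runx1 gave 1.47 over T lymphocytes, 2.40 over B lymphocytes and 2.38 over granulocytes, and Cbfb 1.18, 1.25 and 1.73. Over erythroblasts the ratios per ERCC UMI were 2.37 for Runx1 and 3.33 for Cbfb. The erythroblasts were thus level with B lymphocytes and granulocytes for Runx1 in this setting, rather than lowest. By construction, these 2 settings move every gene alike. Over erythroblasts the interval stayed above 0 for both genes in all settings that give one, with log2 ratios from 1.24 to 2.45 for Runx1 and from 2.20 to 3.33 for Cbfb over all 9 alternatives. With the haemoglobin genes left out of the denominator, these ratios were 1.88 for Runx1 and 2.85 for Cbfb. The Runx1 shares moved by less than their intervals in every alternative set of wells, and those of the Runx1 to Cbfb ratio were chosen after seeing the data. Of the other alternative values 290 stayed and 40 moved, mostly shares of wells after thinning. A minimum of 300 UMIs removes all 5 genes most like each member, so it says nothing of their stability. Levels per ERCC UMI were not run, since their unit differs from CPM. No paired analysis was possible because each population is 1 sample. Depth sets the limit for Runx2 and Runx3, for which a population at 0 can hold up to 22.1 CPM.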
